A study of Mus musculus with 42 samples.

Results

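Soleus muscle of wild-type (wt) mice was compared between young and adult animals. The 9 soleus arrays labelled wt were taken, 4 of young mice aged 2 to 3 months and 5 of adults aged 11 to 12 months, out of 42 arrays in the series. Both arrays of wt adult M2-1 were left out, because their labels contradict each other on which muscle was sampled. All mice were males and carry the strain label 129 SvEvBrd x C57BL/6 heterozygotes, and no treatment is named. The young mice were F4-1, F4-2, F4-3 and F4-4, and the adults M2-2, W2-1, W2-3, X2-2 and X2-3. Values are given in that order of mice throughout. Every young wt mouse has the name prefix F4 and no adult has it, so age cannot be told apart from whatever the prefix stands for. The comparison groups were C3KO soleus of the same ages, from mice lacking the muscle protease calpain 3 by general knowledge of the name (3 young and 6 adult arrays used), and wt quadriceps (4 young and 6 adult arrays).

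The soleus is a small postural muscle of the calf, rich in slow fibres that contract for long periods on oxidative metabolism. Each fibre is wrapped in a basement membrane and set in a scaffold of fibrillar collagen that fibroblasts make, and collagen chains are hydroxylated, secreted, trimmed and cross-linked by dedicated enzymes. In the growing mouse this scaffold is laid down along with the fibres, and in the adult its collagen turns over slowly. Satellite cells, capillaries, nerve endings and resident macrophages share the space between the fibres, and an array of whole muscle averages over all of them. Fewer cells of a type and less RNA in each cannot be told apart in such a sample.

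Slow-fibre genes marked the tissue as labelled: the slow myosin heavy chain gene Myh7 lay between 13.62 and 13.71 in young and between 13.55 and 13.72 in adult arrays, on the deposited log2 scale, where 1 unit is a doubling of signal. Array medians ran from 4.35 to 4.47. The mean of the slow-fibre genes minus that of the fast-fibre genes ran from -1.48 to -0.78 in young and from -1.53 to -0.07 in adult mice, so the adults varied more in fibre-type genes and the ages overlapped. Actin 3-prime minus 5-prime signal, a sign of RNA integrity, was 0.367 ± 0.138 in young (SD, n = 4) and 0.222 ± 0.157 in adult arrays (SD, n = 5). Capn3, the gene of calpain 3, ran from 10.09 to 10.36 in young and from 10.17 to 10.45 in adult wt soleus, a change of 0.07 ± 0.13 with an adjusted p of 0.876 in limma. One C3KO young soleus array, of mouse H4-2, had a median liver-gene value of 13.3, against 3.41 to 3.84 on the other soleus arrays. It was left out, and the numbers of genes that passed with it in the fit are given below.

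With age, several genes of the collagen scaffold and a few muscle, heat shock and atrophy genes fell in wt soleus, while Slc22a2, Vegfc and Hddc3 led a smaller set of rises, along with 1 of the probe sets of Sdc4. Of 11948 genes tested, 106 changed at an adjusted p under 0.05 (limma with Benjamini-Hochberg adjustment), which is 0.887% of the genes. The split was 64 lower in adults (0.536%) and 42 higher (0.352%). Only 26 of the 106 changed more than 2-fold, 13 in each direction. The median change of all genes was -0.01 on the log2 scale, and 53.7% of genes had a negative change. In 103 of the 106 genes no adult array overlapped the young arrays, against 642 of all genes tested (5.37%). The 106 were picked by p on these same arrays, which favours groups that lie apart, so this count is no separate support. An unadjusted p under 0.05 was reached by 1622 genes.

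The number of genes depended on single mice. Without young mouse F4-2 it was 17, without adult W2-3 it was 33, without young F4-1 37, without adult W2-1 44 and without young F4-4 59. It was also 57 with the actin measure as a covariate, 66 with the wt soleus arrays fitted alone, and 51 with the liver-marked C3KO array in the fit. The opposite was seen with array quality weights, which gave 465. A core of 14 genes (6 higher, 8 lower) passed in each of the 9 fits that left out 1 wt soleus array and in each of 12 other settings. Among them were Postn, Alpk3, Mettl21e, Col4a1, Hacd1, Tm6sf1 and Plekhf1, which fell, and Vegfc, Zfp30, Rab4a and Blvrb, which rose, as did Sdc4 on the probe set that stood for it. The other 2 have only provisional symbols: 3110040M04Rik fell and Gm38983 rose. 3110040M04Rik lay at or under the array's median in 4 of 5 adults. The young mean of Gm38983 was 3.81, under the array medians. Signal there may not be told from background, so the sizes of both changes are uncertain.

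**Figure D1:**
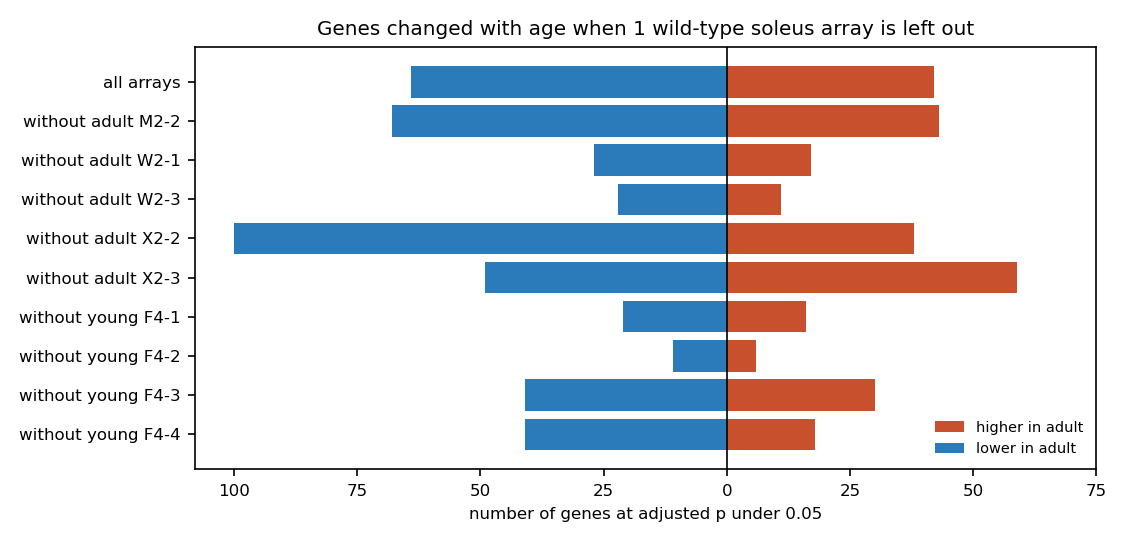
Number of genes at an adjusted p under 0.05 in wt soleus, adult against young, with all arrays and with each wt soleus array left out in turn. Bars to the right count genes higher in adults and bars to the left genes lower in adults; all arrays give 42 and 64, and the fit without young mouse F4-2 gives 6 and 11.

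Upstream sequence is shown for 3 genes that fell: Postn and Alpk3, which had the largest falls, and Hsph1, a heat shock gene whose age change differed between wt and C3KO. The windows cover the 250 bases before a transcript start in RefSeq (GRCm38.p6), 5′ to 3′ on the gene's own strand. Capitals mark TATAAA, the core of a TATA box, in Postn and Alpk3, and a heat shock element core, TTCNNGAA or GAANNTTC, in Hsph1. Postn is at chr3:54360857-54361106 on the plus strand, Alpk3 at chr7:81057350-81057599 on the plus strand and Hsph1 at chr5:149636337-149636586 on the minus strand.
Postn: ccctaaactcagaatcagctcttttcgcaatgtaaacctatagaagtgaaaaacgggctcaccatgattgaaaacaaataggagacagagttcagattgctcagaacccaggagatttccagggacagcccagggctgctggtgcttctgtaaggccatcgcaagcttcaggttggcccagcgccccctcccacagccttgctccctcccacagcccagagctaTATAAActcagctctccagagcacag
Alpk3: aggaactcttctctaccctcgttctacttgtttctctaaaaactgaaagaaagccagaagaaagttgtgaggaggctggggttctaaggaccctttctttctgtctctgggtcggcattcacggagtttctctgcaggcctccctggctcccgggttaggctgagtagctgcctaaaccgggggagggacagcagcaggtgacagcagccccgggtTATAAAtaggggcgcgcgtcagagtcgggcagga
Hsph1: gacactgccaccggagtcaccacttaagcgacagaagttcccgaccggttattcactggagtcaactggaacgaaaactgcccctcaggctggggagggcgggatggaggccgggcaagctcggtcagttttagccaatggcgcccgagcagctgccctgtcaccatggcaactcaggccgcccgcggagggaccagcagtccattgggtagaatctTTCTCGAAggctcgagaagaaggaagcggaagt
In Postn the TATAAA begins at base -26 before the start and in Alpk3 at -34, and the heat shock core of Hsph1 begins at -33. Postn and Hsph1 each have a second listed start that is not shown; the window of the other Postn start holds neither motif. Windows were listed for 85 of the 106 genes, 104 windows in all. TATAAA was found, on either strand, in 9 of those 104 windows and in 12.4% of all 32851 windows in the table, and the heat shock core in 14 of them and in 12.8% of all. Of the 58 windows of genes that fell, 6 held TATAAA, against 12.4% of all windows. Besides Postn and Alpk3 these were Flt1 and Trim63, beginning at -31, Col3a1 at -117 and H3c11 at -147. A match of letters is a description and shows no binding.

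Collagen and matrix genes stood among the largest falls. Postn encodes periostin, a matrix protein made by fibroblasts that helps collagen fibrils to form and cross-link. Its values in young soleus were 9.86, 10.05, 9.71 and 9.13, and in adults 7.17, 7.14, 7.12, 7.25 and 7.84. No array overlapped, and adult X2-3 was the highest of the adults. The fall of -2.38 ± 0.25 (log2 change and standard error; adjusted p = 9.12e-05) is a 5.22-fold difference, and Postn had the largest fall among the genes that passed.

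Of the fibrillar collagen chains, 3 fell. Col1a1, a chain of type I collagen, had 8.26, 8.58, 8.90 and 8.49 in young and 6.69, 7.17, 7.46, 7.60 and 7.10 in adult mice, a change of -1.35 ± 0.31 (adjusted p = 0.0477). For Col3a1, the type III chain, young values were 10.78, 10.80, 10.83 and 10.82 and adult values 9.12, 9.83, 9.66, 10.34 and 9.39, a change of -1.14 ± 0.24 (adjusted p = 0.0287). The young mice were nearly equal in Col3a1 while the adults spread over more than 1 unit, with X2-2 the highest and M2-2 the lowest. Col5a2, a type V chain that sets fibril width, read 8.63, 8.61, 8.68 and 8.52 in young and 6.99, 7.71, 7.58, 8.22 and 7.45 in adults (-1.02 ± 0.19, adjusted p = 0.0161). X2-2 was again the highest adult and M2-2 the lowest, still without overlap with the young. Col1a2, the partner chain of Col1a1, ran from 10.09 to 10.45 in young and from 8.41 to 9.64 in adults, yet its change of -1.02 ± 0.28 missed the threshold (adjusted p = 0.0918). Second probe sets of Col1a1, Col3a1 and Col5a2 gave changes of -1.53, -1.16 and -0.97, in the same direction.

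Collagens of other kinds fell too. Col22a1, a collagen of the junction between muscle and tendon, was 7.11, 7.34, 7.74 and 6.75 in young and 5.64, 5.46, 5.70, 6.20 and 6.20 in adult soleus, without overlap (-1.39 ± 0.30, adjusted p = 0.0293). Its other 2 probe sets gave smaller changes of -0.60 and -0.35. Col4a1, a chain of the basement membrane network, had 10.37, 10.43, 10.42 and 10.21 in young and 9.60, 9.72, 9.80, 9.53 and 9.45 in adults, a tight fall of -0.74 ± 0.12 (adjusted p = 0.00626). Col8a1, a short-chain collagen of vessel walls, fell by 0.79 ± 0.14 (adjusted p = 0.0161). Of 27 collagen chain genes tested, 6 fell, none rose and 22 had a negative change. Of all genes tested, 0.536% fell, 0.352% rose and 53.7% had a negative change. The median of the 27 was -0.36, against -0.01 for all genes. In 10 of the 27 every adult was below every young mouse, against 3.82% of all genes. The 21 chains that did not pass included all 3 tested type VI chains, at -0.50 for Col6a1, -0.42 for Col6a2 and -0.47 for Col6a3.

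The collagen-modifying enzyme genes Plod2 and Lox also fell. Plod2 encodes the lysyl hydroxylase that prepares collagen ends for stable cross-links. Young arrays read 6.21, 6.33, 5.37 and 5.62 and adults 4.85, 4.81, 4.85, 4.79 and 4.81, so the adults were nearly equal and all below the young (-1.06 ± 0.23, adjusted p = 0.0293). Lox, the oxidase that then forms the cross-links, read 6.52, 7.13, 6.60 and 6.01 in young and 5.37, 5.11, 5.51, 6.11 and 5.20 in adults (-1.11 ± 0.22, adjusted p = 0.0257). Adult X2-2 was above young F4-4 in Lox, so here the groups overlapped. Second probe sets gave -0.34 for both Plod2 and Lox.

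Across the written lists, 5 of 21 genes for fibrillar collagens and their processing fell (Col1a1, Col3a1, Col5a2, Lox and Plod2), none rose, and all 21 had a negative change, with a median of -0.43. The mean of these genes on each array ran from 7.28 to 7.40 in young and from 6.52 to 7.11 in adults, lowest in M2-2 and highest in X2-2. Of 24 other matrix proteins and proteoglycans 3 fell, Postn, the cell-binding glycoprotein gene Fn1 (-0.79 ± 0.18, adjusted p = 0.0358) and the elastin gene Eln (-0.60 ± 0.14, adjusted p = 0.0481). Their list median was -0.33, and a second probe set of Eln gave only -0.11. Among 14 basement membrane genes Col4a1 fell and the median was -0.01, with Lama2 at -0.22 ± 0.13 and Hspg2 at 0.01 ± 0.13. None of 11 matrix proteases and inhibitors passed, although Timp1, an inhibitor of matrix proteases, was 5.84, 6.79, 5.41 and 4.71 in young and 4.33, 4.36, 4.35, 4.39 and 4.51 in adults (adjusted p = 0.0778). Over the 4 lists together, 9 of 70 genes fell and none rose with the settings used here. Of all genes tested, 0.536% fell, 0.352% rose and 53.7% had a negative change. Of the proteoglycans that coat fibrils, Dcn was at -0.06 ± 0.16 and Lum at 0.09 ± 0.24, neither passing. The count of 9 became 2 without young F4-2, 3 without young F4-1, adult W2-1 or adult W2-3, 4 without young F4-3, 5 without adult X2-3, 4 with the actin covariate or the liver-marked array, and 17 with array weights. Under those weights 1 matrix gene also rose, Thbs2, a thrombospondin of the matrix (0.77 ± 0.19, adjusted p = 0.0279 in limma). Of the 9 fits that left out 1 wt soleus array, Col1a1 and Eln each missed the threshold in 8 and Col3a1 and Fn1 in 7.

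Fibroblast and tendon genes lay beside these falls. Among 11 fibroblast markers Col1a1 and Col3a1, which the collagen list also holds, fell, while Pdgfra, the receptor that defines muscle fibroblasts, was 7.87 to 8.09 in young and 7.01 to 8.38 in adults (adjusted p = 0.413). Of all genes tested, 0.536% fell. The fibroblast list mean ran from 8.99 to 9.29 in young and from 8.24 to 9.38 in adults. All 11 tendon genes tested had a negative change, against 53.7% of all genes, with a median of -0.50 and none passing. Their mean was 6.77 to 7.41 in young and 6.43 to 6.83 in adults. Tnmd, a tendon marker, ran from 8.23 to 8.81 in young and 7.32 to 7.92 in adults (adjusted p = 0.081), and the tendon transcription factor gene Scx from 5.03 to 5.41 and 4.61 to 4.89 (adjusted p = 0.0506). How much tendon each sample held, and its part in the collagen falls, was not tested.

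**Figure D2:**
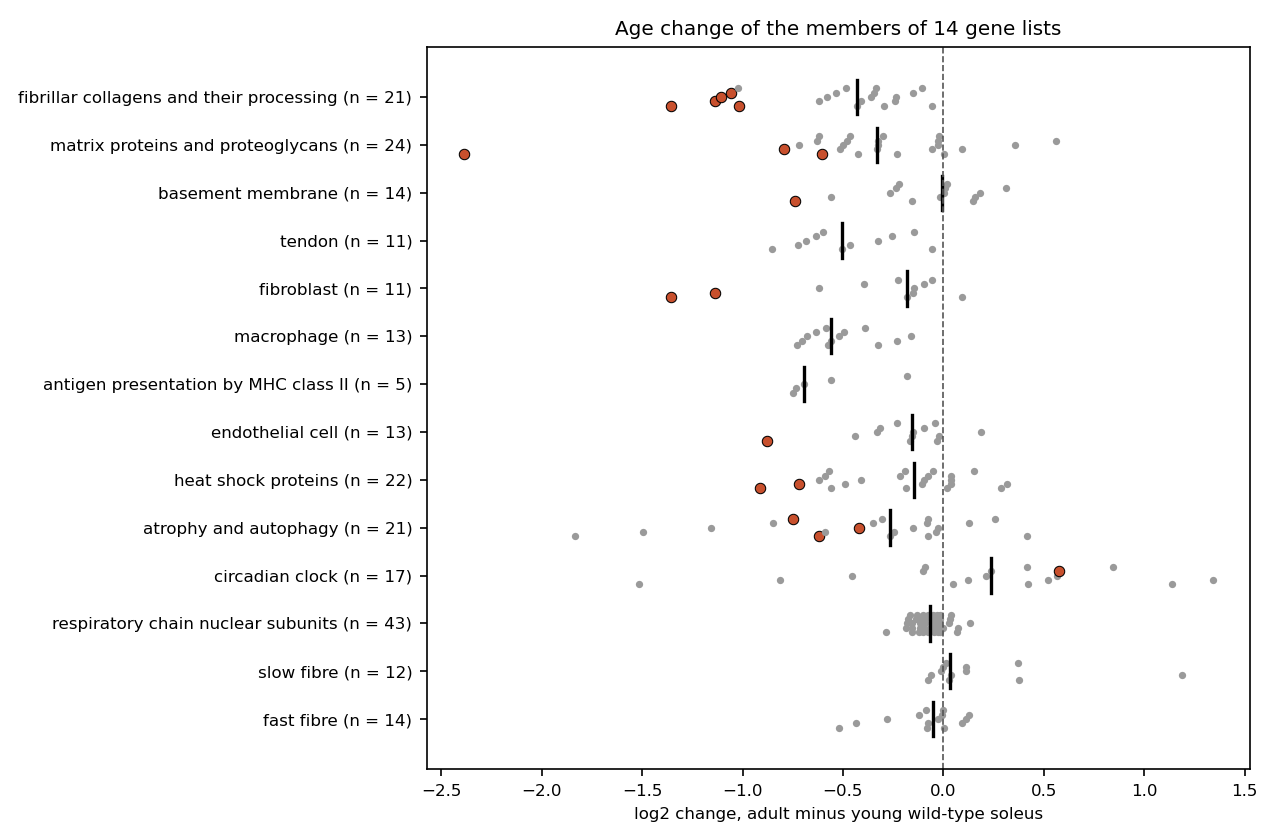
Log2 change from young to adult wt soleus for each tested member of 14 of the written gene lists. Each point is a gene, red points passed at an adjusted p under 0.05, and black bars are list medians; the collagen list has its 21 members left of 0 while the fibre-type and respiratory chain lists centre near 0.

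The second largest fall was in a muscle gene. Alpk3 encodes alpha-kinase 3, a protein of the sarcomere's M-band. Its young values were 11.87, 11.82, 12.07 and 12.01 and its adult values 9.62, 9.84, 9.78, 10.39 and 9.72. Adult X2-2 was above the other adults and still more than 1 unit below every young mouse. The change was -2.07 ± 0.28 (adjusted p = 0.00101), a 4.2-fold fall on a strongly detected probe set. Mettl21e, a protein methyltransferase of muscle, fell from 5.90, 5.79, 6.39 and 5.83 to 3.87, 4.33, 4.54, 4.89 and 4.43 (-1.57 ± 0.24, adjusted p = 0.00394). In 3 of the 5 adults it lay at or under the array's median, where signal may not be told from background, so the size of this fall is uncertain. Niban1, a stress-response gene, was 8.05, 8.5, 8.26 and 8.15 in young and 7.17, 7.64, 7.20, 7.26 and 6.86 in adults (-1.01 ± 0.18, adjusted p = 0.0161). Its second probe set gave a larger change of -1.77. Oxct1, which lets muscle burn ketone bodies, fell by only 0.42 ± 0.09 (adjusted p = 0.0293) but with the groups well apart, from 12.65 to 12.68 in young and from 12.17 to 12.39 in adults.

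Dct and Ms4a6b are best known from cells other than muscle fibres. Dct, the dopachrome tautomerase of pigment cells, read 6.17, 5.73, 5.70 and 5.92 in young and 4.32, 5.37, 5.11, 4.46 and 4.89 in adults (-1.05 ± 0.22, adjusted p = 0.0293), without overlap; 1 adult array was at or under its median. Ms4a6b, a leukocyte membrane protein gene, read 6.28, 6.01, 5.67 and 5.63 in young and 5.10, 4.88, 4.58, 5.30 and 4.53 in adults, also apart (-1.02 ± 0.21, adjusted p = 0.0293). Beside it, none of 13 macrophage markers passed, but all 13 had a negative change, against 53.7% of all genes, with a median of -0.56. Their mean was 6.80 to 6.88 in young and 6.04 to 6.74 in adults. Lyz2, the lysozyme gene of these cells, ran from 8.90 to 9.18 in young and from 7.85 to 8.79 in adults (adjusted p = 0.177), whereas Csf1r, a receptor that defines macrophages, overlapped fully, from 8.42 to 9.04 and from 8.26 to 9.06. MHC class II genes showed the same order: 5 tested, 5 negative, none passing, a median of -0.69 and array means of 7.13 to 7.48 against 6.24 to 6.94. H2-Ab1 ran from 7.22 to 7.59 in young and from 6.14 to 7.03 in adults (adjusted p = 0.0778).

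Stress and atrophy genes held further falls. Of 22 heat shock genes 2 fell and none rose, with a list median of -0.15, against 0.536% lower and 0.352% higher of all genes. Hspa4l, a nucleotide exchange factor of the Hsp110 family, read 6.65, 6.61, 6.15 and 6.35 in young and 5.56, 5.76, 5.47, 5.62 and 5.21 in adults (-0.91 ± 0.15, adjusted p = 0.00724), and its 4 other probe sets gave changes between -0.98 and -0.33. Hsph1, of the same family, whose upstream window is printed above, read 9.44, 9.89, 9.37 and 9.30 and 8.84, 8.89, 8.75, 8.98 and 8.45 (-0.72 ± 0.14, adjusted p = 0.0181). Neither gene's ages overlapped. Hspa1b, the inducible Hsp70 gene, was 9.56 to 11.66 in young and 8.93 to 11.27 in adults, a change of -0.59 ± 0.44 (adjusted p = 0.627).

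Of 21 atrophy and autophagy genes 3 fell and none rose, with a median of -0.26 and 18 of 21 negative. Among all genes, 0.536% fell, 0.352% rose and 53.7% had a negative change. Foxo1, a transcription factor that drives muscle wasting genes, read 9.04, 9.02, 8.27 and 8.37 in young and 8.08, 7.77, 7.99, 8.02 and 7.76 in adults (-0.75 ± 0.16, adjusted p = 0.0293). Trim63, the ubiquitin ligase MuRF1, read 11.14, 11.20, 10.70 and 10.73 and 10.60, 10.15, 10.40, 10.12 and 10.35 (-0.62 ± 0.13, adjusted p = 0.0304). In both genes F4-1 and F4-2 were clearly above F4-3 and F4-4, and all young mice above all adults. Ctsl, a lysosomal protease, fell by 0.42 ± 0.09 (adjusted p = 0.0286), but its second probe set gave 0.11. Fbxo32, the other well-known atrophy ligase, had the opposite sign, with 9.92 to 10.39 in young and 10.50 to 10.74 in adults (0.41 ± 0.12, adjusted p = 0.113).

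The young mice were not alike in some of the stress-responsive genes. Mt2, a metallothionein, was 10.48 and 10.51 in F4-1 and F4-2 but 7.20 and 7.19 in F4-3 and F4-4, with adults from 6.70 to 7.28, and its adjusted p was 0.238. The mean of 18 immediate early genes was 7.90 and 7.91 in F4-1 and F4-2, 7.26 and 7.20 in F4-3 and F4-4, and 6.97 to 7.86 in adults, of whom M2-2 was the highest. The atrophy list mean showed the same order, 9.66 and 9.54 against 9.16 and 9.11, with adults from 8.87 to 9.09. So did the mean of the circadian clock genes, 7.49 and 7.40 against 7.11 and 6.95. The heat shock list mean did not, with 10.44, 10.84, 10.38 and 10.47 in the young mice. The part of the split of F4-1 and F4-2 from F4-3 and F4-4 in the falls of stress genes was not tested. F4-2 and F4-1 are the young mice whose removal lowered the number of genes most.

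The rises were led by a transporter gene. Slc22a2 encodes an organic cation transporter best known from kidney. Young arrays read 4.29, 4.13, 4.61 and 4.32 and adults 6.08, 7.75, 7.46, 7.57 and 5.79, a change of 2.60 ± 0.48 (adjusted p = 0.0161), 6.04-fold. M2-2 and X2-3 were well below the other 3 adults but above every young mouse. In young mice 3 of 4 arrays lay at or under their median, so the size of the rise is uncertain. Sdc4, syndecan 4, a cell-surface proteoglycan also used as a marker of satellite cells, read 6.28, 7.29, 6.17 and 7.09 in young and 9.26, 8.86, 8.54, 8.64 and 8.93 in adults (2.14 ± 0.27, adjusted p = 0.000429). Its second probe set went the other way, by -0.76 (unadjusted p = 0.0275), so the direction for the gene as a whole is not settled. Sdc4 values below are those of the first probe set. None of the other 7 satellite cell markers tested passed.

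Vegfc, a growth factor of lymphatic vessels, had the smallest p among the rises. Its values were 4.51, 5.01, 5.25 and 5.32 in young and 7.06, 7.15, 6.97, 6.78 and 6.75 in adults, a change of 1.92 ± 0.20 (adjusted p = 9.12e-05). The groups were more than 1 unit apart; other probe sets of Vegfc gave 0.46 and 0.25. Angpt1, a vessel-stabilising factor, rose by 0.94 ± 0.19 (adjusted p = 0.0279), with adult M2-2 within the young range. Flt1, a receptor for vascular growth factor, fell by 0.88 ± 0.20 (adjusted p = 0.0475 in limma). It was the only 1 of 13 endothelial markers to pass, against 0.887% of all genes. Flt1 missed the threshold in 8 of 12 other settings and in 8 of the 9 fits that left out 1 wt soleus array. Pecam1 and Cdh5 were at 0.19 ± 0.27 and -0.16 ± 0.18.

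Rab4a, Wdfy1 and Amph were among the other large rises. Rab4a, a GTPase of recycling endosomes, read 6.00, 6.00, 6.42 and 6.05 in young and 7.07, 7.25, 7.44, 7.55 and 7.16 in adults (1.18 ± 0.15, adjusted p = 0.000429), and its second probe set gave 1.31. Young F4-3 was the highest of the young, still below every adult. Wdfy1, an endosomal protein, read 5.64, 5.19, 5.53 and 5.55 and 7.26, 7.53, 6.77, 6.80 and 6.87 (1.57 ± 0.34, adjusted p = 0.0293). It missed the threshold in 1 of 12 other settings and in 7 of the 9 fits that left out 1 wt soleus array. Amph, amphiphysin, an endocytosis protein of nerve endings, read 3.55, 3.56, 4.19 and 3.6 and 6.01, 5.78, 5.63, 4.21 and 4.70 (1.54 ± 0.36, adjusted p = 0.0481); adult X2-2 was barely above young F4-3. The 4 young arrays and 1 adult array were at or under their medians, so the size of the rise of Amph is uncertain. Amph missed the threshold in 9 of 12 other settings and in 7 of the 9 fits that left out 1 wt soleus array. Tbc1d4, a regulator of glucose transporter traffic, rose by 0.71 ± 0.13 (adjusted p = 0.0148), but its second probe set gave only 0.14.

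Dixdc1, of the Wnt pathway, rose from 5.83, 5.69, 6.66 and 6.31 to 7.16, 8.12, 7.59, 7.79 and 6.88 (1.39 ± 0.26, adjusted p = 0.0185). Lypd6, also linked to Wnt and to acetylcholine receptors, read 5.50, 4.78, 5.33 and 5.57 in young and 6.11, 7.01, 6.78, 6.86 and 5.98 in adults (1.25 ± 0.26, adjusted p = 0.0286). Rasd2, a Ras-like GTPase, read 4.98, 4.87, 4.91 and 4.90 and 5.44, 5.69, 6.15, 6.87 and 6.05 (1.13 ± 0.22, adjusted p = 0.0196). In these 3 genes every adult was above every young mouse, and in Rasd2 the young were nearly equal while the adults spread widely. Egf, the epidermal growth factor gene, rose by 0.63 ± 0.12 (adjusted p = 0.0195).

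Hddc3, a phosphohydrolase, rose from 5.92, 5.65, 5.49 and 5.52 to 7.30, 7.52, 7.54, 7.89 and 7.59 (1.92 ± 0.36, adjusted p = 0.0164), a gap of more than 1 unit between the groups. Zfp30, a zinc finger gene, rose from 5.75, 5.99, 6.53 and 6.15 to 7.27, 7.76, 7.42, 7.34 and 7.57 (1.37 ± 0.19, adjusted p = 0.00165). Blvrb, which reduces biliverdin in haem breakdown, rose from 6.55, 6.52, 6.28 and 6.79 to 7.54, 7.96, 7.86, 8.0 and 6.95 (1.12 ± 0.17, adjusted p = 0.00394), with X2-3 the lowest adult. Dmd, the gene of dystrophin, rose by 0.47 ± 0.11 (adjusted p = 0.0457), although 1 of its 3 probe sets had the other sign. Dmd passed in 5 of 12 other settings and in 1 of the 9 fits that left out 1 wt soleus array.

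**Figure D3:**
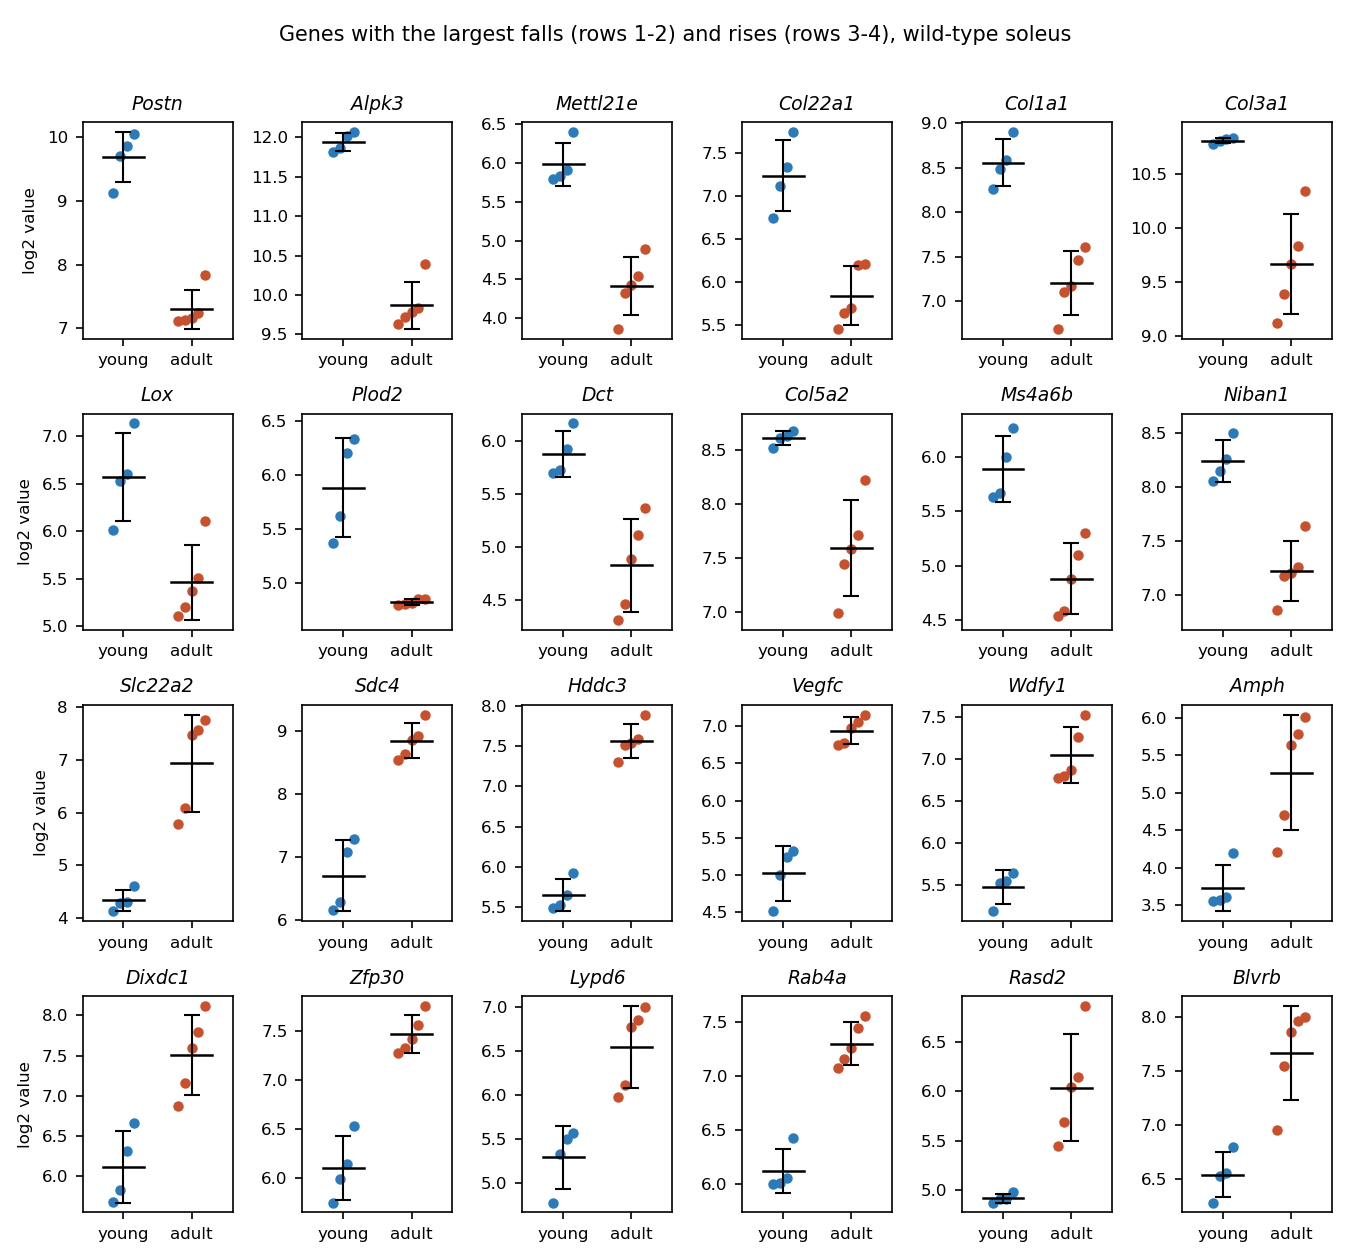
Deposited log2 values of the 12 genes with the largest falls and the 12 with the largest rises that passed in wt soleus, 4 young (blue) and 5 adult (orange) mice per panel. Points are single arrays, horizontal bars are means and error bars SD, and each panel has its own scale; the points of both ages overlap in Lox and in none of the other 23 panels.

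No gene of the written lists for contraction and energy supply passed; Alpk3 and Oxct1, described above, are in none of the lists. None was called among 12 slow-fibre genes (median 0.03) or 14 fast-fibre genes (median -0.05), and the fast gene Myh4 alone ran from 8.26 to 12.83 in young and from 7.68 to 12.99 in adults. Pln, phospholamban, a brake on the calcium pump of slow fibres, was 7.26 to 7.76 in young and 8.02 to 9.38 in adults (1.19 ± 0.28, adjusted p = 0.0506). None of 43 nuclear respiratory chain genes passed, and 37 of them had a negative change, against 53.7% of all genes, around a median of -0.07. Lists of the citric acid cycle, fatty acid use, glycolysis, ribosomal proteins and the cell cycle had no member called either. Of the 47 lists written, 38 had no member called. In the circadian clock list 1 of 17 genes rose, against 0.352% of all genes. That gene was Cry2, a repressor of the clock. Cry2 read 7.26, 7.09, 6.69 and 6.75 in young and 7.82, 7.46, 7.48, 7.51 and 7.36 in adults (0.58 ± 0.12, adjusted p = 0.0293 in limma). It missed the threshold in 4 of 12 other settings and in 6 of the 9 fits that left out 1 wt soleus array. Dbp, a clock output gene, ran from 7.82 to 9.54 and from 9.44 to 10.59 (adjusted p = 0.104); the hour of sampling is not given in the labels.

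The same age step was then examined in C3KO soleus, whose arrays are separate from those of wt. The labels give each array a code. Code 1-1 was held by 3 of the 6 adult C3KO soleus arrays, by 1 adult wt soleus array (M2-2) and by no young array. Code and age were thus partly mixed, more so in C3KO. In C3KO soleus 149 genes changed (1.25%), 112 of them higher in adults. That number was 10 without young J4-1, 52 without young H4-1, 53 without young J4-2, 64, 77 and 92 without adults Q2-4, Q2-2 and Q2-3, 28 with the code in the labels as a block, 25 in arrays of code 1-3, 79 with the most variable probe set, 242 with array weights and 512 with the liver-marked array. Of the 106 genes of wt soleus, 11 also passed in C3KO soleus with the same sign. They are 10.4% of the wt genes and 7.38% of the C3KO genes. Another 2 passed with the other sign. Whatever their p, 68 had the same sign: 32 of the 42 rises and 36 of the 64 falls. The share of all genes with the same sign in both genotypes is not given here, so these counts have no background beside them. The 11 became 1 without young J4-1, 3 without young J4-2 or with the code as a block, 2 in code 1-3 and 7 with the most variable probe set. The 2 became 0 under each of these and without young H4-1, adult Q2-2, adult Q2-4 or wt adult W2-3. With the liver-marked array the 11 became 15 and the 2 stayed 2. With the actin covariate the 11 became 13 and the 2 became 1. Shared falls were Mettl21e, Col4a1, Hacd1, Tm6sf1 and H3c11, and shared rises Amy1, Mgmt, Ephx1, Cry2, Amph and Ipmk. Col4a1 fell by 0.74 ± 0.12 in wt and by 0.75 ± 0.13 in C3KO (adjusted p = 0.00782 in C3KO). Hacd1, an enzyme of very long fatty acids needed for muscle fibre growth, fell by 0.68 ± 0.12 in wt and by 0.61 in C3KO (adjusted p = 0.0241). Ephx1, a detoxifying hydrolase, rose by 0.38 ± 0.08 in wt and by 0.83 in C3KO (adjusted p = 9.44e-05). Other collagens and Postn fell in wt at the threshold but not in C3KO, where Postn had -1.03 ± 0.27 (adjusted p = 0.0676), Col1a1 -0.96 ± 0.33 (adjusted p = 0.163) and Col3a1 -0.82 ± 0.25 (adjusted p = 0.119). The difference between genotypes did not pass for these 3, with adjusted p values of 0.121, 0.78 and 0.756. Of the 70 matrix genes 1 fell and none rose in C3KO, against 37 lower and 112 higher of all 11948 genes.

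A test of the difference between the age changes of both genotypes found 32 genes (0.268%), 9 with a more positive change in wt and 23 with a more negative one; 1516 genes had an unadjusted p under 0.05. Of the 106 genes of wt soleus, 16 were among them. The count of 32 ran from 14 to 149 when 1 wt soleus array was left out, highest without adult M2-2. It ran from 10 to 37 when 1 C3KO array was left out, lowest without young H4-1. It was 21 with the code in the labels as a block or with the actin covariate. With the liver-marked array it was 38, and with array weights 121.

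Vegfc and the first probe set of Sdc4 were lower in young wt soleus than in the other 3 groups of soleus. Vegfc in C3KO soleus was already 6.84 to 7.60 in young and 6.11 to 7.19 in adults, against 4.51 to 5.32 in young wt, and the age changes differed by 2.47 ± 0.29 (adjusted p = 0.000752). Sdc4 was at 9.31 or above in young and 8.91 to 10.38 in adult C3KO, and its age changes differed by 2.08 ± 0.39 (adjusted p = 0.0286). Zfp30 (7.56 to 7.81 in young C3KO) and Blvrb (7.49 to 8.03) showed the same layout, with differences of 1.71 ± 0.28 and 1.25 ± 0.25. In each of these 4 genes young wt mice were the lowest group and adult wt mice came near the C3KO range. Pdp1, a phosphatase that activates pyruvate dehydrogenase, differed by 1.61 ± 0.33 (adjusted p = 0.0399), with 0.82 in wt and -0.79 in C3KO, neither passing alone.

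Alpk3 was 10.68 to 11.82 in young and 10.78 to 12.51 in adult C3KO soleus (a change of 0.56 ± 0.29, adjusted p = 0.393), and the difference between age changes was -2.63 ± 0.41 (adjusted p = 0.00972). Dct and Foxo1 passed in opposite directions: Dct changed by -1.05 in wt and by 1.00 ± 0.24 in C3KO (adjusted p = 0.0422), and Foxo1 by -0.75 in wt and 0.71 ± 0.17 in C3KO (adjusted p = 0.0408). Hsph1 had -0.72 in wt and 0.58 ± 0.14 in C3KO (adjusted p = 0.0508), a difference of -1.30 ± 0.20 (adjusted p = 0.00972). Lox had -1.11 in wt and 0.49 ± 0.24 in C3KO, a difference of -1.60 ± 0.32 (adjusted p = 0.0399). Ndrg4, Acer2 and Lgals3 also differed. Their wt changes of -0.74, -0.43 and -0.73 did not pass, and they rose by 2.34, 1.55 and 1.27 in C3KO.

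**Figure D4:**
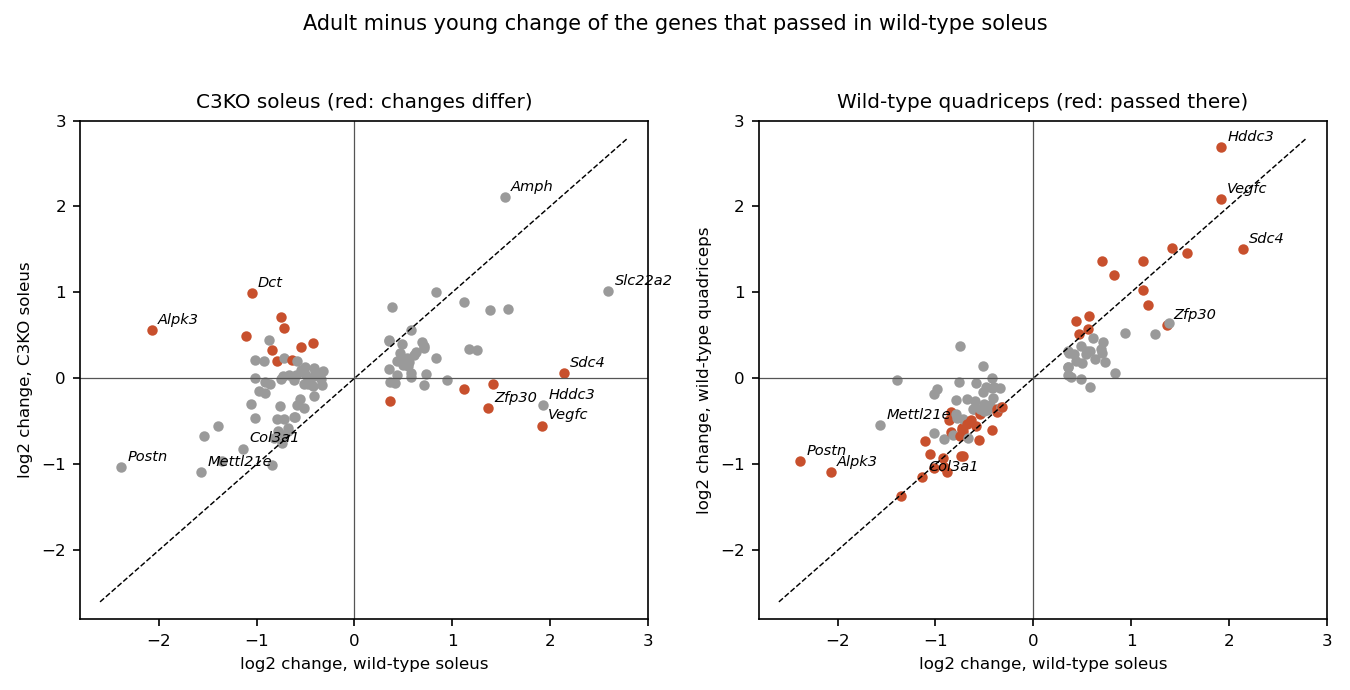
Log2 change from young to adult of the genes that passed in wt soleus (x axis) against their change in C3KO soleus (left) and in wt quadriceps (right), 1 point per gene, with the line of equal change dashed. Red points on the left are the 16 genes whose change differed between genotypes and on the right the 43 genes that also passed in quadriceps; Alpk3 and Vegfc lie far from the line on the left and on the same side of 0 in both muscles on the right.

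In quadriceps, a mostly fast thigh muscle taken largely from the same wt mice, 642 genes changed with age (5.39%). The number was 291 without young F4-4, 335 without young F4-1 and 333 with the 9 wt mice alone. Since the mice are shared, the muscles are not independent. Of the 101 genes of wt soleus that were also tested in quadriceps, 43 passed there with the same sign and none with the other sign. Whatever their p, 96 of the 101 had the same sign. The share of all genes with the same sign in both muscles is not given here, so this count has no background beside it. The 43 became 33 without F4-4, 37 without F4-1 and 35 with the 9 wt mice alone. Vegfc rose by 2.08 ± 0.30 in quadriceps (adjusted p = 0.000412), Hddc3 by 2.69 ± 0.46 (adjusted p = 0.00152) and the same Sdc4 probe set by 1.5 ± 0.27 (adjusted p = 0.00275). Col1a1 fell by 1.36 ± 0.22 and Col3a1 by 1.15 ± 0.21, close to their soleus changes, and 15 of the 70 matrix genes fell while 1 rose. Of all 11915 genes tested in quadriceps, 293 fell and 349 rose. Col22a1 had -0.02 ± 0.19 in quadriceps (adjusted p = 0.977) against -1.39 in soleus; the paired difference of -1.31 ± 0.31 had an adjusted p of 0.18.

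Soleus minus quadriceps was formed within each mouse and compared between ages; 2 of 12234 genes passed (0.0163%), and 855 had an unadjusted p under 0.05. For Postn the young differences were 2.53, 2.70, 2.53 and 2.12 and the adult ones 0.81, 0.59, 0.80, 1.11 and 1.21. Postn thus fell more in soleus than in quadriceps, by -1.57 ± 0.23 (adjusted p = 0.0153), and in quadriceps its mean went from 7.22 to 6.26. Psat1, an enzyme of serine synthesis, had young differences of 1.39, 1.26, 1.2 and 0.80 and adult ones of 0.09, 0.24, 0.34, -0.03 and -0.11, a change of -1.06 ± 0.17 (adjusted p = 0.0194). For both genes no adult mouse overlapped a young one. The count of 2 was 0 without adult M2-2, young F4-2 or young F4-3, 5 without adult X2-2, 10 without adult X2-3, and 0 when the pairing by mouse was not used.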

How the data were processed

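Total RNA of soleus and quadriceps was hybridised to Affymetrix mouse arrays, 1 per muscle sample. The log2 expression values were used as deposited; the submitters' processing notes name MAS5 and RMA but not what each did, and the steps behind the values are otherwise not given in the sources used here. Of 45037 probe sets that are no controls, 34945 had 1 gene symbol, 932 several and 9160 none or no entry. Symbols were updated through gene IDs (99.4% matched in a GRCm38.p6 table). A probe set was kept where at least 4 of the fitted arrays had it above their own median, and the one with the highest mean stood for its gene. limma 3.58.1 in R 4.3.3 (lmFit, eBayes) fitted 18 soleus arrays of 4 groups, 21 quadriceps arrays, and the soleus minus quadriceps difference of 18 mice with both arrays. Same-named samples come from the same mouse, per the labels. The correlation of their deviations from the group means ran from -0.16 to 0.38 over 18 mice and was over 0.1 in 14. Over the wt mice it ran from -0.16 to 0.33. The mice not over 0.1 were all wt: X2-2 (-0.09), X2-3 (-0.16), F4-2 (0.01) and F4-4 (0.08). P-values are two-sided, Benjamini-Hochberg adjusted over all genes, with a threshold of 0.05; errors after ± of a change are standard errors. For arrays, their number limits the precision. The fit was tested on simulated data. Genes named are the 12 largest rises and falls in wt soleus without unnamed clones, 5 per direction in other comparisons, up to 4 members of a described list and those shared with C3KO; further list members, shown with values, were chosen after their values were seen. The lists and members were chosen with earlier results of these data known. Alternatives covered normalization, filter, probe set choice, arrays fitted, the code in the labels, actin ratio, array weights and each array left out.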

Additional observations from a re-analysis of the deposited data

Results flagged for a closer look

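In wt soleus, 4 of 48 groups of values of the named genes had 1 array standing far from the others by Dixon's test, which chance gives in about 1 of 20 groups. These were the adult X2-3 array in Postn (7.84), the adult X2-2 array in Alpk3 (10.4), and the young F4-3 array in Rab4a (6.42) and in Amph (4.19). In each, the outlying array lay nearer the other age than the rest of its group did.

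The change from young to adult differed between wt and C3KO soleus, by limma's test of the difference, in a set of named genes. A more negative change in wt was found for Ndrg4 (-3.07), Alpk3 (-2.63), Dct (-2.04), Lgals3 (-2.0), Acer2 (-1.98), Lox (-1.60), Foxo1 (-1.46), Hsph1 (-1.30), Mrps12 (-1.17), Col8a1 (-1.0), Slc7a6os (-0.91), Plekho1 (-0.85) and Abcg2 (-0.84). A more positive change in wt was found for Vegfc (2.47), Sdc4 (2.08), Zfp30 (1.71), Pdp1 (1.61), Blvrb (1.25) and Pkia (0.63). In both lists the number is the log2 change in wt minus that in C3KO. Within wt mice, the change differed between soleus and quadriceps for Postn (-1.57) and Psat1 (-1.06).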

How the results depend on the processing

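Counts of genes in wt soleus (42 higher, 64 lower) stayed within 1.5 times under no filter, a stricter filter, every probe set on its own, the code as a block, arrays of code 1-3 alone, and a trended robust prior. The genes behind these counts were not all the same. Of the 106 genes, 84 passed again with no filter, 102 with the stricter filter and 78 with every probe set on its own. With the code as a block 98 passed again, in code 1-3 alone 63 and with the trended robust prior 101. Quantile normalization gave 64 higher and 66 lower, the wt arrays alone 20 higher, the liver-marked H4-2 array 17 higher and 34 lower, the actin covariate 24 and 33, and array weights 210 and 255. With 1 wt array left out, the higher count ran from 6 to 59 and the lower from 11 to 100. The difference between genotypes (32 genes) gave 21 with the code as a block, 21 with the actin covariate and 121 with weights, and 10 to 149 with 1 array left out. The C3KO count (149) gave 79 with the most variable probe set, 512 with H4-2, 28 with the code as a block, 25 in code 1-3 alone, 242 with weights, and 10 to 217 with 1 array left out. The quadriceps count (642) gave 333 with 9 wt mice alone and 291 to 711 with 1 array left out. The paired muscle difference (2 genes) gave 0 without the replicate block by mouse, 4 after quantile normalization, 1 with 9 wt mice alone, 0 with H4-2, and 0 to 10 with 1 mouse left out. Of 24 named genes, 8 passed in every fit tried and 13 in all 12 settings other than these single arrays left out (code 1-3 alone also drops adult M2-2); Ctsl reversed to 0.11 with its more variable probe set. The cause of these shifts was not tested. Matrix gene counts, C3KO arrays left out and the quadriceps code as a block were added after seeing the data. The array of H4-2 in quadriceps was already in that fit, so no such alternative was run there, and the code of the soleus array as a block was not run for quadriceps.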

Other observations

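Some genes that passed in wt soleus were not part of any list and were picked out here after their values were seen. The lysosomal hydrolase genes Aga and Ctsa fell by 0.73 ± 0.15 and 0.51 ± 0.09 (adjusted p = 0.0257 and 0.0161 in limma), and the groups of 4 young and 5 adult mice did not overlap in either. A second probe set of Ctsa gave only -0.04. The mitochondrial ribosome genes Mrps12 and Mrpl43 fell by 0.84 ± 0.15 and 0.37 ± 0.07 (adjusted p = 0.0161 and 0.0278), again without overlap. All 4 mast cell markers tested had a positive change, with a median of 0.39 and none passing. Among all genes, 53.7% had a negative change.

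Several genes that passed lie next to or near each other in the gene order of the GRCm38.p6 table. Col3a1 and Col5a2, with changes of -1.14 and -1.02, are neighbours on chromosome 1 with no tested gene between them. Aga and Vegfc are such neighbours on chromosome 8 and went in opposite directions, by -0.73 and 1.92. On chromosome 7, Ngrn, Rccd1 and Hddc3 rose by 0.44, 0.74 and 1.92, with 1 tested gene between each and the next. Of 941 genes tested on chromosome 7, 15 passed (1.59%), against 0.887% of all genes tested, and on chromosome 3 it was 9 of 564 (1.6%).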
